A study of Homo sapiens with 4 samples.

Results

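Reactive oxygen species are removed in cells by antioxidant enzymes. Here 10 genes of such enzymes, or of enzymes linked to them, were examined in MIA PaCa-2 cells treated with IL-1β. The genes are SOD1, SOD2, CAT, GPX1, TXN, TXNRD1, PRDX1, NQO1, GCLM and HMOX1, and they were chosen by name. That choice was made with earlier results of these data known. Every probe that the array's probe-to-gene table assigns to one of these symbols was taken, which gave 19 of the 48803 probes. Of these, 18 passed the filter for signal above background and entered the test of 13152 probes, and the remaining probe, the dimmer of GPX1, was not detected on any array.

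MIA PaCa-2 is an established human line derived from a pancreatic carcinoma. One group was treated with IL-1β at 2 ng/ml for 36 h and the other was left untreated, each with 2 samples and 1 Illumina WG-6 v3 bead chip array per sample. All cells were grown in high-glucose DMEM with fetal bovine serum, and the labels name no genetic change in either group. Whether the 2 samples of each group were grown as separate cultures is not stated in the labels. The p-values therefore reflect only sample-to-sample spread, which could be technical. RNA was taken from whole cultures, in which a change in some cells and a change in all cells cannot be told apart.

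Superoxide dismutases turn superoxide into hydrogen peroxide. SOD1 works mainly in the cytosol with copper and zinc, and SOD2 in the mitochondrial matrix with manganese. Catalase, glutathione peroxidases and peroxiredoxins then remove the peroxide. The peroxidases and peroxiredoxins do so with reducing power that comes from glutathione or from thioredoxin. NF-κB, which IL-1β activates, is known to induce SOD2. The factor NRF2, which KEAP1 holds back until cells meet oxidants, is known to induce TXN, TXNRD1, PRDX1, NQO1, GCLM and HMOX1 through antioxidant response elements in their control regions. These 6 genes are called NRF2-linked here.

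The core of an antioxidant response element reads TGACNNNGC. It was looked for on both strands in the RefSeq promoter windows of build GRCh38.p14, each with 250 bases before and 50 after a gene's start. Windows were found for 7 of the 10 genes, 11 windows in all, and none were used for SOD1, PRDX1 and HMOX1. Among the NRF2-linked genes the core was present in both windows of TXNRD1 and in the window of GCLM, and these stretches are shown. Capitals mark the core as it lies on the gene's strand.
TXNRD1, chr12:104286920-104286949, + strand: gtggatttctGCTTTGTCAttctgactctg
TXNRD1, chr12:104215670-104215699, + strand: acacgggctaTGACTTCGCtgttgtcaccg
TXNRD1, chr12:104215761-104215790, + strand: gcgtccttcgGCTCCGTCAgttcccacagg
GCLM, chr1:93909445-93909474, - strand: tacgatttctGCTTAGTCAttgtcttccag
Read in the forward direction of the motif, the cores are TGACAAAGC, TGACTTCGC and TGACGGAGC in TXNRD1 and TGACTAAGC in GCLM. The core was found in 13.3% of all 35116 promoter windows, so its presence is a description and not a site. The windows of TXN and NQO1 did not hold these letters, nor did those of SOD2, CAT and GPX1. Bases outside the windows were not searched, so an element farther from the start would be missed.

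SOD2 had 4 promoter windows. The one with the most GC boxes, the letters GGGCGG bound by SP1, is shown for its bases before the start. Capitals mark the GC boxes on the printed strand, some of which overlap.
SOD2, chr6:159693242-159693491, - strand: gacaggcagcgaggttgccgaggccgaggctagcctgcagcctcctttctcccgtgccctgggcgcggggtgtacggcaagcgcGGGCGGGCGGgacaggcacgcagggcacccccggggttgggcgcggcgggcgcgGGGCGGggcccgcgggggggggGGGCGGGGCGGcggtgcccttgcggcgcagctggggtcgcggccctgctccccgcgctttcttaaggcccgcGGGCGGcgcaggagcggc
This stretch of 250 bases is 80.8% G and C and holds 6 GC boxes. Over all windows of 300 bases, 45.0% hold at least 1 on either strand. The other SOD2 windows hold 1, 4 and 1. Every window of CAT, GPX1, TXN, TXNRD1, NQO1 and GCLM also holds at least 1, so GC boxes are not particular to SOD2.

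The arrays were similar in detection. Between 13026 and 13157 probes were detected on the IL-1β arrays and between 12740 and 12862 on the control arrays. Raw intensity averaged 482 and 449 on the IL-1β arrays, against 527 and 549 on the control arrays, and the median ratio of raw intensities, IL-1β over control, was 0.839 over the tested probes. The arrays were therefore background corrected and quantile normalized before comparison, and values below are log2 of that normalized intensity unless called raw. The epithelial keratins KRT8, KRT18 and KRT19 were detected on all 4 arrays, while the epithelial KRT7, EPCAM and CDH1 were detected on none. Of the mesenchymal markers, VIM was detected on all 4 arrays, ZEB1 on 2, and CDH2 and FN1 on none. Markers of other cell types were mostly undetected, with exceptions in COL1A2, CD68 and CDH5 on all 4 arrays. Of the leukocyte and macrophage markers other than CD68 and CD14, PTPRC, LYZ, CSF1R, ITGAM and CD3E were detected on none of the arrays. CD68 differed by 0.31 between the groups, CD14, detected on 2 arrays, by -0.084, COL1A2 by -0.24, CDH5 by -0.0099, VIM by 0.0044 and the 3 keratins by -0.24 to -0.20, and their part in the results was not tested.

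IL-1β-treated cells were set against untreated cells to ask whether the antioxidant enzymes changed, and whether mitochondrial SOD2 did so together with the NRF2-linked genes. By the difference of its brightest probe, IL-1β minus control, SOD2 stood highest of the 10 genes. TXNRD1, which recharges thioredoxin with electrons from NADPH, stood lowest. The other 8 lay between. By the size of its difference SOD2 was number 108 from the top of 8862 named genes, each read by its brightest tested probe, and TXNRD1 was number 179 from the bottom. None of the 13152 probes passed an adjusted p of 0.05 in limma (0%), so no gene is called changed here, and 2437 probes had an unadjusted p under 0.05, 1217 of them higher and 1220 lower. With median scaling over all probes that split was 257 higher and 4231 lower, with the authors' averaged-table factors 924 and 2371, and with the authors' series matrix values 654 and 1896.

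**Figure D1:**
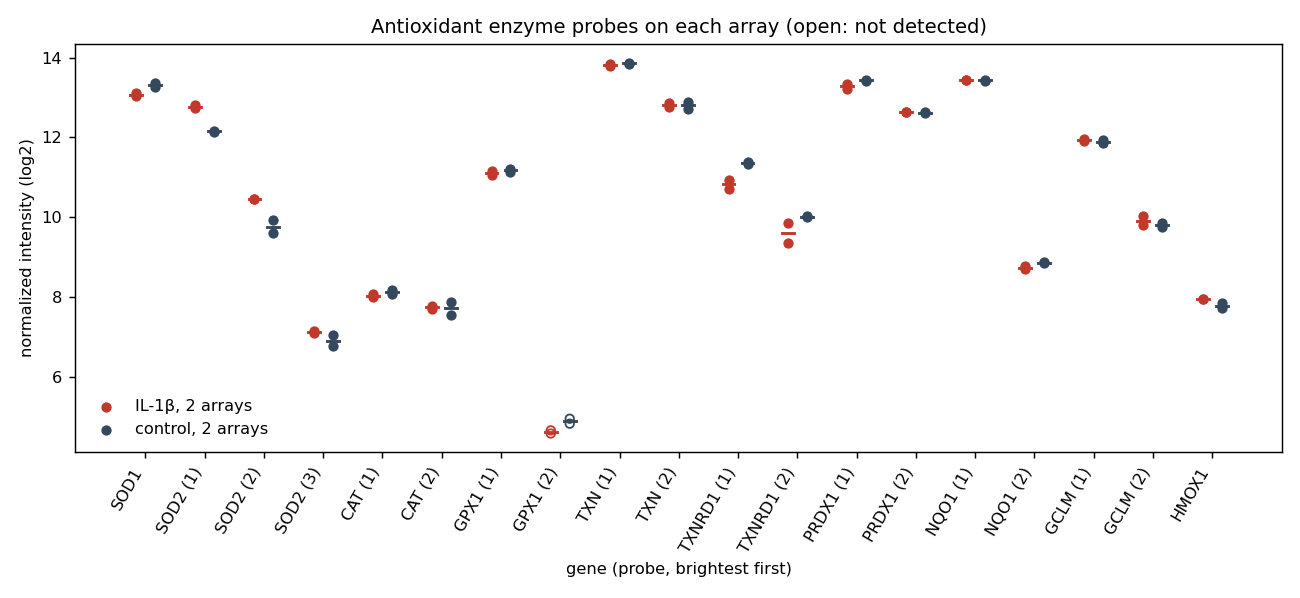
Normalized log2 intensity of each of the 19 probes (columns, brightest probe of a gene first) on each array, with IL-1β arrays in red at left and control arrays in dark grey at right. Points are arrays, bars are means of 2 arrays, and open points mark the GPX1 probe that was not detected. The SOD2 points of the 2 brighter probes are higher with IL-1β, and those of TXNRD1 are lower. Heights of different probes cannot be compared.

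SOD2 was read by 3 probes, designed on transcripts NM_001024465, NM_001024466 and NM_000636. The brightest, on NM_001024465, had log2 intensities of 12.81 and 12.73 on the IL-1β arrays, against 12.16 and 12.15 on the control arrays. The second, on NM_001024466, had 10.47 and 10.46 on the IL-1β arrays, against 9.93 and 9.60 on the control arrays. The dimmest, on NM_000636, had 7.11 and 7.16 on the IL-1β arrays, against 6.77 and 7.06 on the control arrays. In all 3 probes both IL-1β arrays lay above both control arrays, but in the dimmest by only 0.05.

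The brightest SOD2 probe averaged 12.77 ± 0.05 with IL-1β and 12.15 ± 0.01 in controls (SD, n = 2 each), a difference of 0.61 ± 0.09 (SE), or 1.53-fold (95% confidence interval 1.30 to 1.80). The second probe differed by 0.70 ± 0.13, or 1.62-fold (1.28 to 2.04), where the SD was 0.01 with IL-1β and 0.23 in controls. The dimmest differed by 0.22 ± 0.13, or 1.17-fold (0.938 to 1.45). The adjusted p in limma was 0.0988 for the brightest probe, 0.112 for the second and 0.409 for the dimmest. The 3 probes thus had the same sign and differed in size. The sign was kept in all 8 ways of background correction and scaling that were tried, although the dimmest probe went as low as 0.016 there.

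The raw intensities of SOD2 were of the same sign as the normalized ones in the 2 brighter probes. The brightest read 6811 and 6021 with IL-1β, against 5097 and 5305 in controls, a ratio of 1.23. Of the 19 probes, only the 2 brighter ones of SOD2 had a raw ratio above 1, a state shared by 5.15% of all tested probes. The dimmest SOD2 probe had a raw ratio of 0.933, above the median ratio of all tested probes.

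TXNRD1 was read by 2 probes. The brighter had log2 intensities of 10.72 and 10.94 on the IL-1β arrays, against 11.38 and 11.33 on the control arrays. The dimmer had 9.36 and 9.85 on the IL-1β arrays, against 10.04 and 10.00 on the control arrays. Both probes were lower on both IL-1β arrays than on either control array, and in both the first IL-1β array was the lower of the pair.

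The brighter TXNRD1 probe averaged 10.83 ± 0.16 with IL-1β and 11.35 ± 0.04 in controls, a difference of -0.52 ± 0.12, or 1.44-fold lower (1.18 to 1.76; adjusted p = 0.129 in limma). The dimmer differed by -0.42 ± 0.17, or 1.33-fold lower (0.990 to 1.80; adjusted p = 0.281 in limma). The direction of both probes was lower in all 8 ways of processing, from -0.74 to -0.49 in the brighter. Without IL-1β replicate 1 the difference of the brighter probe was -0.41, and without IL-1β replicate 2 it was -0.64. In raw intensity the brighter probe read 1695 and 1808 with IL-1β, against 3052 and 3063 in controls.

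The partners of TXNRD1 had smaller differences than TXNRD1. TXN, thioredoxin itself, had 13.78 and 13.83 on the IL-1β arrays, against 13.84 and 13.88 on the control arrays in its brighter probe. Its dimmer probe had 12.76 and 12.86 on the IL-1β arrays, against 12.89 and 12.72 on the control arrays. The differences were -0.05 ± 0.09 and 0.00 ± 0.11, with 95% intervals from 0.821 to 1.13-fold and from 0.833 to 1.21-fold, and both changed sign between ways of scaling.

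PRDX1, a peroxiredoxin that takes its electrons from thioredoxin, had 13.21 and 13.35 on the IL-1β arrays, against 13.42 and 13.44 on the control arrays in its brighter probe, a difference of -0.15 ± 0.10 (adjusted p = 0.476 in limma). Its dimmer probe had 12.64 and 12.64 on the IL-1β arrays, against 12.61 and 12.63 on the control arrays, a difference of 0.01 ± 0.09. The groups did not overlap in either probe, but the probes disagreed in sign, so no direction is given for PRDX1.

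GCLM, the modifier subunit of the enzyme that limits glutathione synthesis, had 11.96 and 11.90 on the IL-1β arrays, against 11.86 and 11.93 on the control arrays. Its dimmer probe had 10.02 and 9.81 on the IL-1β arrays, against 9.77 and 9.86 on the control arrays. The groups overlapped in both. The difference of the brighter probe was 0.04 ± 0.10, with a 95% interval from 0.869 to 1.21-fold, and its sign changed between ways of scaling. Whether the core motif printed above for GCLM and TXNRD1 bears on the differences of these genes was not tested.

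NQO1, a quinone reductase, had 13.45 and 13.44 on the IL-1β arrays, against 13.44 and 13.42 on the control arrays in its brighter probe. That is a difference of 0.01 ± 0.09, with a 95% interval from 0.861 to 1.18-fold and a sign that changed between ways of scaling. Its dimmer probe had 8.78 and 8.71 on the IL-1β arrays, against 8.86 and 8.87 on the control arrays, a difference of -0.12 ± 0.09. The IL-1β arrays lay under both controls in the dimmer probe only.

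HMOX1, the inducible haem oxygenase, was read by 1 probe with 7.95 and 7.96 on the IL-1β arrays, against 7.86 and 7.72 on the control arrays. The IL-1β arrays lay above the controls, by a difference of 0.16 ± 0.10, or 1.12-fold (0.941 to 1.33; adjusted p = 0.448 in limma), in 7 of 8 ways of processing and not with median scaling over all probes, where it was -0.07. That scaling shifted the median difference over tested probes to -0.22, and relative to this median HMOX1 was higher in all 8.

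SOD1, the cytosolic dismutase, was on the side opposite to SOD2. Its single probe had 13.03 and 13.11 on the IL-1β arrays, against 13.35 and 13.26 on the control arrays. The groups did not overlap, and the difference was -0.24 ± 0.10, or 1.18-fold lower (0.993 to 1.40; adjusted p = 0.283 in limma), with the same sign in all 8 ways of processing.

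CAT, catalase, had 8.01 and 8.07 on the IL-1β arrays, against 8.19 and 8.09 on the control arrays, and in its dimmer probe 7.71 and 7.79 on the IL-1β arrays, against 7.89 and 7.56 on the control arrays. The differences of -0.10 ± 0.10 and 0.03 ± 0.14 had opposite signs, and the sign of the dimmer changed between ways of scaling. GPX1, a glutathione peroxidase that carries selenocysteine as TXNRD1 does, had 11.07 and 11.15 on the IL-1β arrays, against 11.21 and 11.13 on the control arrays. Its groups overlapped, and the difference was -0.06 ± 0.10 (adjusted p = 0.783 in limma). The probe of GPX1 that was not detected read 4.66 and 4.58 on the IL-1β arrays, against 4.83 and 4.96 on the control arrays, which gives no fold.

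**Figure D2:**
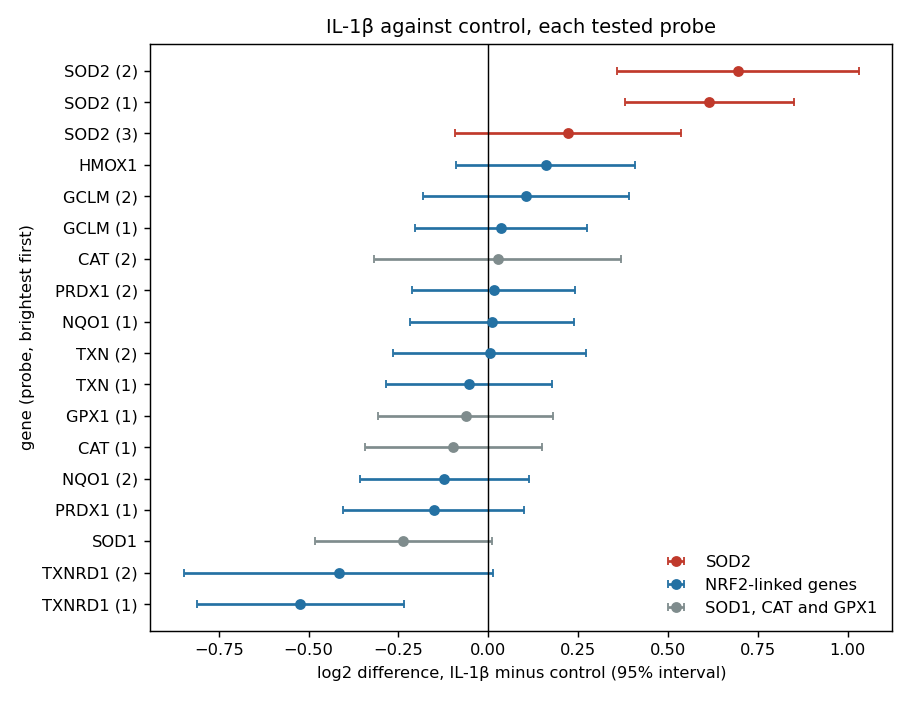
Log2 difference, IL-1β minus control, of each of the 18 tested probes (rows, sorted), with 95% confidence intervals from limma. SOD2 is red, NRF2-linked genes are blue and SOD1, CAT and GPX1 are grey. The intervals of the 2 brighter SOD2 probes lie wholly above 0 and that of the brighter TXNRD1 probe wholly below it, and the other 15 include 0.

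Counts over the 10 genes were read against those over the whole array. Of the 18 tested probes 10 were higher and 8 lower, with a median difference of 0.01, against 6538 higher and 6614 lower with a median of 0.00 over all tested probes. The median size of the difference, whatever its sign, was 0.11 for the 18 probes and 0.14 for all tested probes. An unadjusted p under 0.05 was reached by 3 of the 18, or 16.7%, against 18.5% of all tested probes. The 2 higher ones were the brighter probes of SOD2, against 9.25% of all tested probes called higher, and the 1 lower one was the brighter probe of TXNRD1, against 9.28% called lower. An adjusted p under 0.1 was reached by 1 of the 18, the brightest SOD2 probe, against 0.943% of all tested probes.

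No overlap between IL-1β and control arrays was seen for 12 of the 18 probes, or 66.7%, against 50.7% over the array. Of these, 5 were higher and 7 lower, against 25.5% and 25.2% over the array. At least 1.5-fold with no overlap was reached by 2 of the 18, or 11.1%, both of SOD2 and both higher, against 3.05% of all tested probes. At 1.2-fold, 4 of the 18 qualified, or 22.2%, against 21.9% of all tested probes, and the 2 that were added were the probes of TXNRD1.

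SOD2 was then set against the 6 NRF2-linked genes, with the brightest probe of each. Of the 6, 3 were higher and 3 lower, with a median difference of -0.02 and a range from -0.52 to 0.16. SOD2 lay 0.64 above that median. Each probe was centred on its own mean over the 4 arrays, and the mean of the 6 genes was subtracted from SOD2 on each array. This gave 0.42 and 0.28 on the IL-1β arrays, against -0.35 and -0.35 on the control arrays. With 2 arrays against 2 there are 6 ways to split the arrays, and an exact two-sided permutation test cannot give a p below 0.333, so no p is given for this value.

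The same holds against each gene alone. Taken within arrays, SOD2 over TXNRD1 differed between the groups by 1.14 on the log2 scale, and the 4 pairs of an IL-1β with a control array ranged from 0.96 to 1.31. SOD2 over HMOX1 differed by 0.45, the smallest of the 9 such differences, with pairs from 0.35 to 0.56. SOD2 over SOD1 differed by 0.85, with pairs from 0.73 to 0.97. In each of the 9 comparisons every pair of arrays was above 0. On raw intensities with no background correction, where 1 factor per array cancels, the differences were 1.11 for TXNRD1, 0.81 for SOD1 and 0.45 for HMOX1. A change of such a ratio shows that the genes differed unequally, and not which of them changed.

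**Figure D3:**
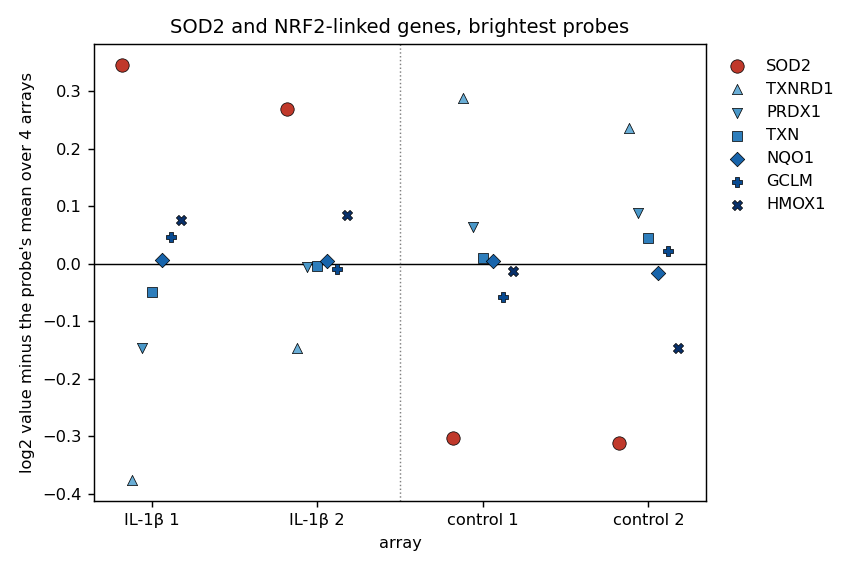
Brightest probe of SOD2 (red circles) and of the 6 NRF2-linked genes (blue symbols) on each array, as log2 value minus the probe's own mean over the 4 arrays. SOD2 is above its mean on the IL-1β arrays and under it on the controls, TXNRD1 the reverse, and the other 5 genes lie within 0.15 of their mean on every array.

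**Figure D4:**
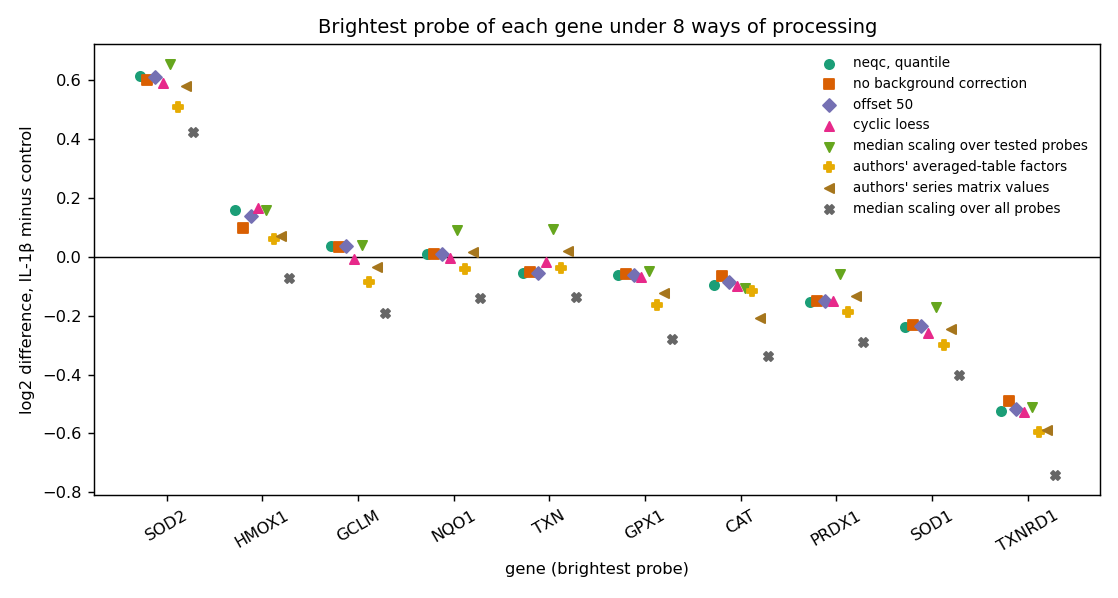
Log2 difference, IL-1β minus control, of the brightest probe of each gene under 8 ways of background correction and scaling (symbols). SOD2 stays between 0.42 and 0.65 and TXNRD1 between -0.74 and -0.49, while TXN, NQO1, GCLM and HMOX1 lie on either side of 0. Median scaling over all probes lowers every gene.

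The authors' deposited tables of averages and of scores hold 4 of the 10 genes. Both tables cover only a small part of the 48803 probes. The brightest SOD2 probe has, in the authors' deposited averages, a mean of 6909 with IL-1β and 4851 in controls, a ratio of 1.42, and the second probe has 1493 and 1055. In the authors' deposited table of these averages, TXNRD1 has 1892 with IL-1β and 2853 in controls, a ratio of 0.663, SOD1 has 8518 and 10471, a ratio of 0.813, and GPX1 has 2266 and 2538, a ratio of 0.893. The authors' deposited table of signed scores, with no stated formula, gives SOD2 scores of 340.2 and 32.6 in its 2 entries, TXNRD1 -75.8, SOD1 -36.9 and GPX1 -14.7. Most of the deposited scores are negative, with 1215 below 0 and 225 above 0. The negative scores of TXNRD1, SOD1 and GPX1 are therefore not particular to these genes. The largest score in the authors' deposited table is shared by 19 entries, SOD2 among them.

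The 3 named genes whose values over the 4 arrays were nearest to the brightest SOD2 probe, by Euclidean distance after centring each probe, were PTGES, BAIAP2L1 and TXNDC12. PTGES, which makes prostaglandin E2, was at a distance of 0.029, with 9.59 and 9.53 on the IL-1β arrays and 8.96 and 8.97 on the control arrays. BAIAP2L1, an adaptor of actin and membranes, was at 0.037 and TXNDC12, a thioredoxin-domain protein of the endoplasmic reticulum, at 0.044. Their differences were 0.59, 0.58 and 0.60. With 4 arrays and 8862 genes to choose from, such closeness is a description.

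Lists of related genes were read by the brightest tested probe of each gene, against 4447 higher and 4415 lower with a median of 0.00 over all 8862 named genes. No gene of any list passed an adjusted p of 0.05 in limma. Of 34 genes known as NRF2 targets, 29 matched a probe and 23 were tested. Of the 23, 13 were higher and 10 lower at a median of 0.01, and an unadjusted p under 0.05 was reached by 4 higher and 3 lower ones, against 18.5% of all tested probes, 9.25% higher and 9.28% lower. The highest outside the 10 genes was PIR, an iron-binding nuclear protein, at 0.43 ± 0.14 (adjusted p = 0.211 in limma), with its other probe at 0.54. GSR, which reduces glutathione, was at 0.34 ± 0.16, but its other probe was at -0.08. The lowest were AKR1C3, a reductase of steroids and carbonyls, at -0.77 ± 0.28 (adjusted p = 0.245 in limma) and ABCC2, an export pump for glutathione conjugates, at -0.41 ± 0.13. AKR1C3 ranged from -1.14 to -0.20 over the 8 ways of processing, and was at -0.33 without IL-1β replicate 1 and -1.21 without IL-1β replicate 2. It was detected on 3 of the 4 arrays and belongs to a family of near-identical genes that its probe may not tell apart.

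The next list holds NRF2 and its regulators. Of 15, 14 matched and 11 were tested, with 9 higher and 2 lower at a median of 0.14, a median that was negative with median scaling over all probes but lay 0.057 to 0.14 above the median of all tested probes in all 8 ways of processing. NFE2L2, the gene of NRF2, differed by -0.21 ± 0.09 (adjusted p = 0.317 in limma), lower in all 8 ways of processing. KEAP1, its inhibitor, differed by 0.16 ± 0.10, with its other tested probe at 0.09 and a negative sign with median scaling over all probes. Relative to the median of all tested probes KEAP1 was higher in all 8 ways of processing, by 0.084 to 0.17. NFE2L1, a relative of NRF2 known for proteasome genes, had the largest difference of the list at 0.58 ± 0.09, or 1.49-fold (adjusted p = 0.1004 in limma), higher in all 8. MAFG, a small MAF partner of NRF2, was at 0.26 ± 0.10, and the kinase GSK3B at -0.22 ± 0.11.

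Among dismutases and sources of superoxide, 19 of 21 genes matched and 7 were tested, 4 higher and 3 lower with a median of 0.01. RAC2, a GTPase of the NADPH oxidase, was at 0.69 ± 0.12, or 1.61-fold (adjusted p = 0.104 in limma), with 1 probe. The catalytic oxidases NOX1, NOX4, NOX5, CYBB, DUOX1 and DUOX2 and the secreted SOD3 were among the 12 whose probes were too dim to test.

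The glutathione and thioredoxin lists had medians near 0, on the lower side. Relative to the median of all tested probes, the glutathione list lay at -0.075 to -0.0088 over the 8 ways of processing. The thioredoxin list lay at -0.10 to -0.051, so both were lower in all 8. Of 25 glutathione and peroxide genes 20 were tested, 9 higher and 11 lower with a median of -0.04, from GLRX2 at -0.25 ± 0.10 and GSTO1 at -0.22 ± 0.10, whose other probe was at 0.04, to GSTM3 at 0.25 ± 0.11, detected on 3 arrays and from 0.083 to 0.32 over the 8 ways of processing, and GSR. No tested gene of that list reached an unadjusted p under 0.05, against 18.5% of all tested probes. Of 22 thioredoxin and peroxiredoxin genes 15 were tested, 6 higher and 9 lower at a median of -0.07, and 1 of the 15, TXNRD1, reached an unadjusted p under 0.05, against 18.5% of all tested probes. SRXN1, which repairs overoxidized peroxiredoxins, was at 0.25 ± 0.11, MSRB1, a methionine sulfoxide reductase, at 0.10 ± 0.09 with a sign that turned in 3 of 8 ways of processing but was higher than the median of all tested probes in all 8, MSRB2 at -0.19 ± 0.09 and TXNL1 at -0.23 ± 0.13.

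Metal and haem genes were higher in 9 of 13 tested of 19, with a median of 0.09, which was negative with median scaling over all probes but lay 0.092 to 0.22 above the median of all tested probes in all 8 ways of processing. The metallothioneins MT1M and MT1X, which bind zinc and copper, were at 0.46 ± 0.11 (adjusted p = 0.142 in limma) and 0.29 ± 0.15, from a family of near-identical genes. BLVRB, which reduces biliverdin, was at -0.22 ± 0.09 and FECH, the last enzyme of haem synthesis, at -0.19 ± 0.10. The share of tested genes with no overlap between IL-1β and control arrays was 76.9% in this list, 72.7% in the NRF2 regulators, 65.2% in the NRF2 targets, 53.3% in the thioredoxin genes, 45.0% in the glutathione genes and 42.9% in the dismutase and source genes, against 50.7% of all tested probes.

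**Figure D5:**
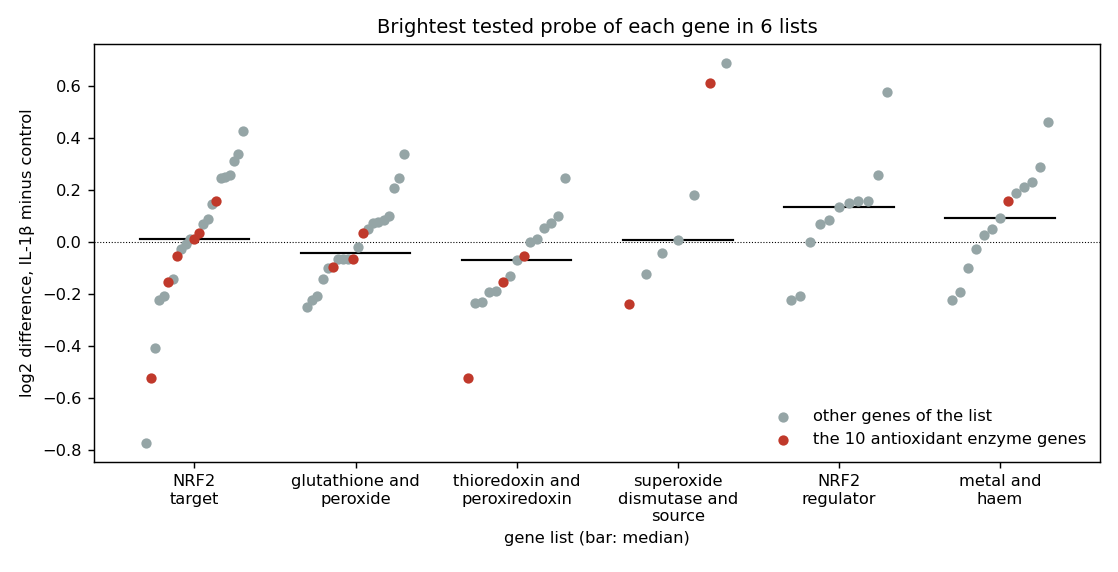
Log2 difference, IL-1β minus control, of the brightest tested probe of each gene in 6 lists (columns), sorted within a list, with bars at the medians. The 10 antioxidant enzyme genes are red and other genes grey, and a gene in several lists is drawn in each. The medians lie between -0.07 and 0.14, and SOD2 and TXNRD1 are near the ends of their lists.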

How the data were processed

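RNA was purified with Trizol and a column, and biotinylated cRNA was hybridised to the arrays, per the labels' protocols. The raw deposited file gives, per the file headers, a linear intensity and a detection p-value for each probe on each array. The authors' deposited series matrix and table of averages hold intensities rescaled by 1 factor per array (in the series matrix after subtraction of 1 constant), as read from the values. The score table the authors deposited has no header. Scanning software was not named in the labels.

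Here, neqc of limma 3.58.1 (R 4.3.3) was applied to the intensities, with background estimated from the detection p-values, offset 16, quantile normalization and log2. The filter asked for detection at p under 0.01 on 2 arrays or more. The 13152 probes left were fitted with lmFit and eBayes, two-sided, with Benjamini-Hochberg adjustment. Probe names came from the probe-to-gene table (27578 with 1 gene, 13 with several, 21212 not listed), and the brightest tested probe stands for a gene. The fit was run on simulated data drawn from its own variance model, which cannot show that these data follow that model.

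The members, lists and tests were chosen with earlier results of these data known. Beside the 10 genes, the text names per list up to 2 tested genes per direction with the largest difference and no overlap between groups, NFE2L2 and KEAP1, and the 3 genes nearest to SOD2. Alternatives changed background, scaling, filter, variance model, probe choice and fold, blocked on replicate number, or omitted 1 array at a time. The number of arrays limits the precision.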

Additional observations from a re-analysis of the deposited data

How the results depend on the processing

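Read by the brightest probe or by the mean of the tested probes, SOD2, SOD1, TXNRD1, CAT, GPX1 and PRDX1 kept their sign under every alternative run. The dimmer probes of CAT and PRDX1 did not. Over the 8 ways of background correction and scaling, the dimmer CAT probe was higher in 5 and lower in 3. The dimmer PRDX1 probe was higher in 4 and lower in 4. SOD2 passed an adjusted p of 0.05 in limma under 4 of 15 alternatives, with differences of 0.60 (adjusted p = 0.000804) with no background correction, 0.61 (0.0434) with an offset of 50, 0.51 (0.00217) with the authors' averaged-table factors and 0.61 (0.000162) with a trended, robust variance. Over its 15 alternatives the adjusted p ranged from 0.000162 to 0.432. TXNRD1 also passed under 4, and SOD1 with the averaged-table factors (0.0399). The cause of these shifts was not tested.

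Over all probes the count past 0.05 was 0, against 622 with no background correction, 91 with offset 50, 919 with median scaling over all probes, 10 with median scaling over tested probes, 1097 with the averaged-table factors, 66 with detection on all 4 arrays and 728 with the trended, robust variance. Among the 18 probes, those past the adjusted 0.05 numbered 3, 1, 1, 5 and 3 with no background correction, offset 50, median scaling over all probes, averaged-table factors and trended variance. Under the same 5, the count past 0.1 was 4, 3, 7, 5 and 5, and the count past an unadjusted 0.05 was 5, 5, 9, 6 and 5, against 21.1%, 19.7%, 34.1%, 25.1% and 21.3% of all tested probes. For 0.1 the shares of all tested probes were 9.22%, 4.24%, 23.7%, 14.9% and 10.2%. With detection on all 4 arrays the counts past 0.1 and past the unadjusted 0.05 were 3 and 5, against 3.91% and 19.9% of all tested probes. The count past 0.1 was 0 with the series matrix values, with no filter and with the replicate block. The count at 1.5-fold with no overlap was 1 with the averaged-table factors, against 0.502% of all tested probes, and 4 at 1.2-fold, against 21.9%.

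The sign of NQO1 turned to -0.0047 with cyclic loess, -0.14 with median scaling over all probes, -0.040 with averaged-table factors and -0.055 as the mean of its probes. GCLM turned to -0.0055, -0.19 and -0.086 under the first 3 of these and to -0.035 with the series matrix. HMOX1 turned to -0.070 with median scaling over all probes, and TXN to 0.094 with median scaling over tested probes and 0.020 with the series matrix. SOD2 minus the NRF2-linked median was 0.57 with averaged-table factors and 0.55 with the mean of all probes.

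List medians were recomputed in alternatives chosen after seeing the data. With median scaling over all probes they were -0.14 for NRF2 targets, -0.24 for glutathione, -0.29 for thioredoxin, -0.16 for dismutases and sources, -0.095 for NRF2 regulators and -0.020 for metal and haem. With median scaling over tested probes, NRF2 targets were at 0.092, glutathione at -0.012, dismutases at 0.074 and metal and haem at 0.21. With averaged-table factors, NRF2 targets were at -0.025, glutathione at -0.12, dismutases at -0.057, regulators at 0.013 and metal and haem at 0.077. With the series matrix, glutathione was at -0.087, thioredoxin at -0.13, regulators at 0.059 and metal and haem at 0.14. Regulators were at 0.075 with no background correction and 0.11 with offset 50, and metal and haem at 0.15 with cyclic loess. With detection on all 4 arrays, NRF2 targets were at 0.036, glutathione at -0.063 and regulators at 0.11.

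Leaving out 1 array at a time assumes that the lone array of a group varies like the other group. SOD2 ranged from 0.58 to 0.65, SOD2 minus the NRF2-linked median from 0.59 to 0.69, and GCLM from -0.0031 to 0.076. Among the 18 probes the count at an adjusted 0.05 or 0.1 was 0 to 0, past an unadjusted 0.05 it was 3 to 4, against 13.1% to 14.5% of all tested probes, and at 1.5-fold with no overlap 1 to 4, against 4.15% to 4.52%. Outside the 10 genes, GSR ranged from 0.13 to 0.55, MT1X from 0.092 to 0.49, TXNL1 from -0.36 to -0.092 and GSK3B from -0.33 to -0.11. List medians ranged from -0.0056 to 0.056 for NRF2 targets, -0.036 to 0.013 for glutathione, -0.097 to -0.030 for thioredoxin, -0.010 to 0.071 for dismutases, 0.088 to 0.13 for regulators and 0.079 to 0.12 for metal and haem.

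Same-numbered arrays are not known to be paired, and their deviations correlated at -0.09. With the replicate block SOD2 differed by 0.61 (adjusted p = 0.197), and 0 probes passed 0.05. With 2 arrays a group, precision is limited and p-values cannot show that values are alike.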
